A study of Mus musculus with 28 samples.

Results

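The RNA sensors, IRF and STAT factors described here are 9 mouse genes chosen by name. They comprise the sensors Ifih1, Dhx58 and Tlr3, the adaptor Mavs, the interferon regulatory factors Irf1, Irf3 and Irf7, and Irf9 and Stat2, which act together in interferon signaling. Each symbol named 1 row of the deposited expression table, which holds 43143 rows, 18509 of them with a symbol. The question was how these genes differed when the cancer cells had lost KEAP1, or both KEAP1 and NRF2, in tumors and in the cancer cells cultured on their own.

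The cells were 3LL cells, a male-derived mouse line from Lewis lung carcinoma, and 28 libraries were analyzed, 4 in each of 7 groups. WT cells were the parental line. KEAP1-KO cells were grown from a single colony after a CRISPR-Cas9 frameshift in Keap1, the gene of the adaptor that marks NRF2 for degradation. DKO cells were made from the KEAP1-KO cells, also through a single colony, by frameshifts in the gene of NRF2 (Nfe2l2), so both edited genotypes lack KEAP1. The sources used here do not say whether the libraries of an edited genotype came from more than 1 clone. The 3 lines were sequenced from culture (WT cells, KEAP1-KO cells, DKO cells). For the 16 tumors, cells were injected into both flanks of 6-week-old male albino C57BL/6 mice, which have an intact immune system, and grown for 10 days. In Experiment A the left flank received WT cells and the right flank KEAP1-KO cells (WT tumors A, KEAP1-KO tumors A). In Experiment B the left flank received KEAP1-KO cells and the right flank DKO cells (KEAP1-KO tumors B, DKO tumors B). Genotype and flank therefore changed together, the tumors of an experiment grew in shared hosts, and the labels used here do not say which tumors came from the same mouse. Nothing in the labels says that the cell libraries came from separate cultures, so the p-values measure the spread between these libraries, which may be technical in part.

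MDA5 (encoded by Ifih1) and LGP2 (encoded by Dhx58) bind double-stranded RNA in the cytosol, and TLR3 binds it in endosomes. MDA5 signals through MAVS on mitochondria, which leads to activation of IRF3 and IRF7 and to transcription of type I interferon genes. Signaling from interferon receptors then activates STAT2, which acts with IRF9 in the complex ISGF3. ISGF3 binds the interferon-stimulated response element (ISRE), and among its targets are several of the genes above, so the pathway feeds back on its own components. IRF1 is induced chiefly by interferon-gamma, through the gamma-activated site (GAS). Leukocytes, macrophages in particular, carry much of this machinery, and bulk tumor RNA mixes their RNA with that of the cancer cells.

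The rows with these symbols were single transcripts, none of them a consensus coding transcript. In the GENCODE vM21 annotation the rows of Ifih1 (Ifih1-205), Irf3 (Irf3-212), Irf7 (Irf7-213), Irf9 (Irf9-204) and Stat2 (Stat2-206) are retained-intron transcripts, and that of Dhx58 (Dhx58-204) is a processed transcript. The Mavs row (Mavs-203) is annotated as a target of nonsense-mediated decay and holds all 1509 coding bases of the gene's reference coding transcript. The Tlr3 row (Tlr3-206, 1 exon) and the Irf1 row (Irf1-208, 7 exons) are annotated as protein coding. The Irf7 row is 1 exon of 3240 bases that spans all 9 introns of the gene, whereas the Irf3 row of 635 bases holds 0 coding bases of the reference coding transcript. A further 22 rows without a symbol belong to the same 9 genes in vM21, and they are used below as a second reading of each gene.

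The proximal promoters of the members were searched for letters bound by factors of this pathway or by NRF2, and windows are shown where a match was found. A match to the pathway's own motifs was found only for Ifih1, Stat2 and Irf1. Promoter sequences of RefSeq (GRCm38.p6), running from 250 bases before to 50 after each start site, were matched by symbol for 8 of the 9 members, in 10 entries. There was no entry for Dhx58. The ISRE core was searched as GAAANNGAAA and the GAS as TTCNNNGAA. The core of the antioxidant response element (ARE), which NRF2 binds, was searched as TGACNNNGC. All 3 were searched on both strands, and no match overlapped another. Of all 32851 promoters, 3.44% held the ISRE core, 8.3% the GAS and 12.4% the ARE core. Capitals mark the matched letters in the windows below, and positions count from the start site as 0. A match is a description of the letters only.

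Ifih1, ISRE core at 32, chr2:62646206-62646233, minus strand: gaagagaatcGAAACAGAAAccgatctg

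Stat2, ISRE core at -222 on the reverse strand, chr10:128270248-128270325, plus strand: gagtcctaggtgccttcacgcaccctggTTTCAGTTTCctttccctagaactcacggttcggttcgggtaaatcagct

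Irf1, GAS at -90, chr11:53769884-53769972, plus strand: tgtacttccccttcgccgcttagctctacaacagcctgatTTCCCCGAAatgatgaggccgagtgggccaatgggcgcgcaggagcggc

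Irf7, ARE core at -245 on the reverse strand, chr7:141266621-141266674, minus strand: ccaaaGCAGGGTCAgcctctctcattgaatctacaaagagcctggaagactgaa

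Mavs, ARE core at -73, chr2:131233950-131234038, plus strand: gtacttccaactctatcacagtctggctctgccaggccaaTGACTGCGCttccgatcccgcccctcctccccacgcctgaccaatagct

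The promoter sequences of Irf3, Irf9 and Tlr3 held none of the 3 motifs, nor did a second start site of Irf1.

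Depth ranged from 4222365 to 7524264 reads per library. Values are normalized counts, and differences are of mean log2(normalized count + 4), the scale of the deposited table, which understates the change of rows with few reads. Keap1 transcript fell by 1.43 in KEAP1-KO tumors A relative to WT tumors A and by 1.86 in KEAP1-KO cells relative to WT cells. Nqo1, an NRF2 target that encodes a quinone oxidoreductase, was 5433 ± 409 in KEAP1-KO tumors A against 112 ± 15 in WT tumors A (SD, n = 4), and 59.2 ± 17.2 in DKO tumors B. The carcinoma marker rows (Krt8, Krt18, Cdh1 and Vim) summed to between 1493 and 5262 in every library. Of these 4, 2 were lower in KEAP1-KO tumors A than in WT tumors, and 1 was higher and 1 lower in DKO than in KEAP1-KO tumors B. Vim is also expressed by fibroblasts and leukocytes. Nfe2l2 transcript did not pass the test in any genotype comparison, and a frameshift need not change it.

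In Experiment A, 6 of the 8 members tested were lower in KEAP1-KO tumors than in WT tumors, and none was higher. Of all 34215 rows tested in the tumors, 7.49% were called lower. The 6 were Irf7, Ifih1, Irf1, Stat2, Dhx58 and Irf9. Of these, the Irf1 row passed the filter through 3 WT tumors, where it is high, and 1 KEAP1-KO tumor of Experiment B, so its call is a description. The median difference of the 8 was -1.58, against -0.03 for all rows. In bulk tissue, fewer cells of a type and less RNA per cell cannot be told apart.

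**Figure D1:**
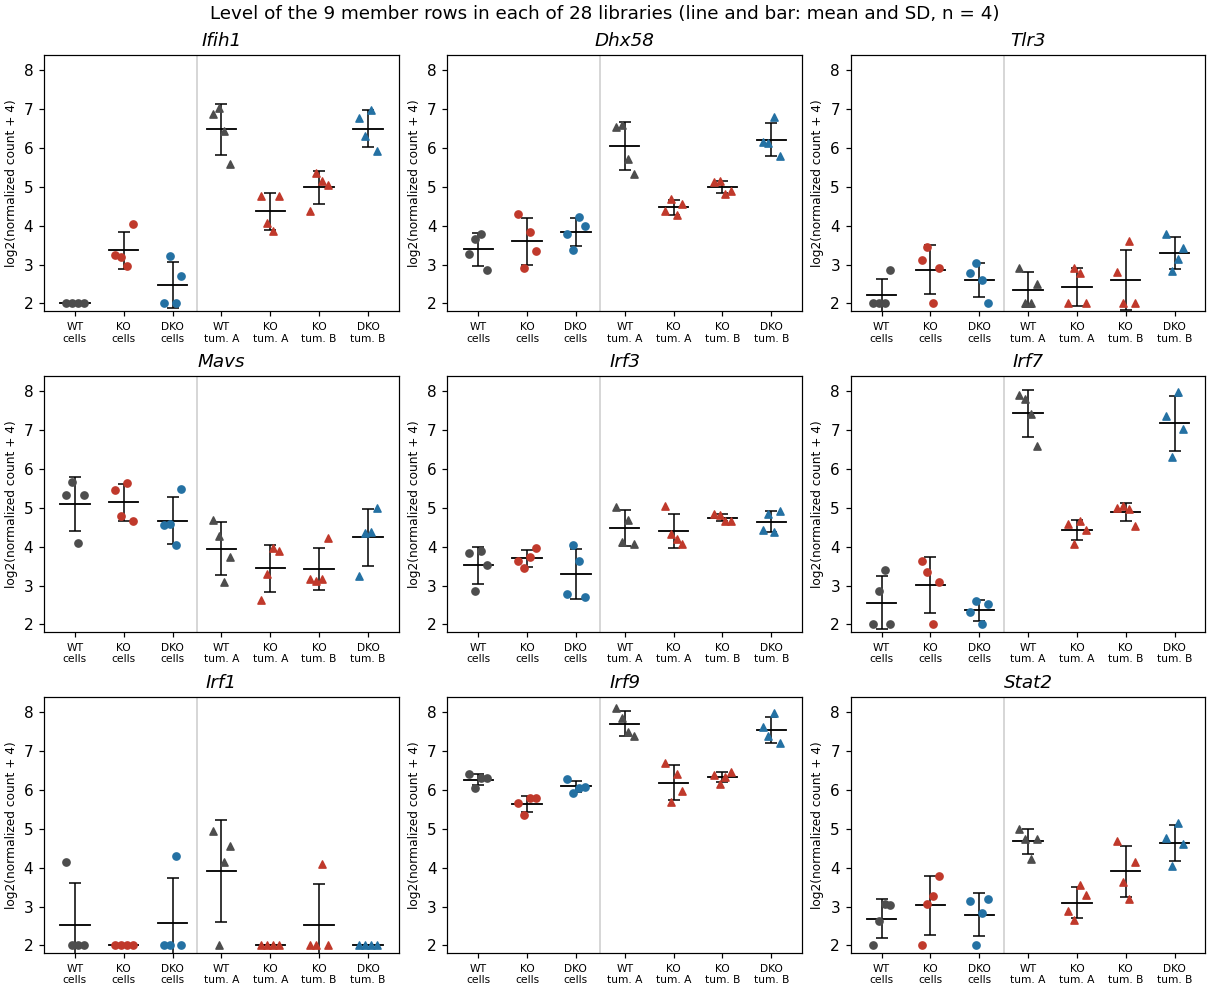
Level of each of the 9 member rows, as log2(normalized count + 4), in the 28 libraries by group, cells as circles and tumors as triangles, with the mean and SD of 4 libraries. KO stands for KEAP1-KO. The 4 WT tumors and the 4 DKO tumors lie above all 8 KEAP1-KO tumors for Ifih1, Dhx58, Irf7 and Irf9.

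Among the sensors, the Ifih1 row stood at 114, 127, 82.3 and 44.1 normalized counts in the 4 WT tumors and at 23.3, 12.7, 10.6 and 23.4 in the 4 KEAP1-KO tumors of Experiment A. The groups did not overlap. The mean was 5.24-fold lower and the log2 difference -2.11 (SE 0.33, adjusted p = 3.66e-04). Dhx58, whose product modulates MDA5 signaling, stood at 89.8, 93.3, 48.4 and 36.5 in WT tumors and at 16.7, 22, 15.5 and 19.5 in KEAP1-KO tumors. It was lower in all 4 KEAP1-KO tumors than in any WT tumor, by 1.58 on the log2 scale (SE 0.27, adjusted p = 6.68e-04). The Tlr3 row held 0 to 4 reads per tumor in Experiment A and was not tested among tumors. Its gene sum differed by -0.29 in Experiment A and by 0.62 in Experiment B (adjusted p = 0.108), neither of which was called, and it was higher in DKO than in WT tumors (0.91, adjusted p = 0.0156, beside 9.79% of genes).

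Irf7, the factor that amplifies type I interferon transcription, had the largest difference on the log2(normalized count + 4) scale. This scale understates the change of rows with few reads, such as that of Irf1. The row stood at 235, 219, 168 and 92.5 in WT tumors and at 20, 12.7, 21.3 and 17.5 in KEAP1-KO tumors A. The lowest WT tumor was thus above every KEAP1-KO tumor, and the means differed 10-fold (log2 difference -3.00, SE 0.32, adjusted p = 8.22e-06). Irf3, which is present before stimulation and is activated by phosphorylation, stood at 28.7, 13.3, 21.9 and 12.7 in WT tumors and at 28.9, 16.2, 14.5 and 12.7 in KEAP1-KO tumors. These overlapped throughout (log2 difference -0.07, SE 0.25, adjusted p = 0.916). The Irf1 row was at 26.9, 0, 13.7 and 19.5 in WT tumors and was listed at 0 in all 4 KEAP1-KO tumors A. It passed the test (-1.91, SE 0.56, adjusted p = 0.0321) although the groups overlapped. Leaving out any 1 of the 4 KEAP1-KO tumors raised the adjusted p to between 0.0557 and 0.0673, and without WT replicate 1, 3 or 4 the row failed the filter and was not tested.

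Of the ISGF3 subunits, Irf9 stood at 274, 226, 176 and 164 in WT tumors and at 98.9, 47.4, 81.1 and 59.4 in KEAP1-KO tumors A. The mean was 2.93-fold lower without overlap (log2 difference -1.52, SE 0.22, adjusted p = 1.41e-04). Stat2 stood at 27.8, 22.9, 14.6 and 22.9 in WT tumors and at 3.33, 2.31, 7.73 and 5.84 in KEAP1-KO tumors A, again without overlap (-1.58, SE 0.33, adjusted p = 0.00384). The adaptor Mavs stood at 21.6, 15.2, 4.57 and 9.34 against 2.22, 5.78, 11.6 and 10.7, with overlapping groups (-0.50, SE 0.43, adjusted p = 0.538). In all, 5 of the 8 members were lower with no overlap of the groups, as were 9.05% of all rows.

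In Experiment B, where the DKO tumors lack NRF2 as well, 4 of the 8 members tested were higher in DKO than in KEAP1-KO tumors and none was lower. They were Irf7, Ifih1, Dhx58 and Irf9. Of all rows, 4.22% were called higher and 4.64% lower. The same 4 were the members whose groups did not overlap in this direction, as held for 7.14% of all rows. The median difference of the 8 was 1.02, against 0 for all rows.

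Irf7 stood at 27.9, 28.9, 27.4 and 19.2 in KEAP1-KO tumors B and at 162, 75.2, 250.1 and 127 in DKO tumors. The mean rose 5.94-fold (log2 difference 2.29, SE 0.32, adjusted p = 1.99e-04). Ifih1 stood at 17.0, 37.2, 31.4 and 29.4 in KEAP1-KO tumors B and at 106, 75.2, 122 and 56.3 in DKO tumors (1.51, SE 0.33, adjusted p = 0.00819). For both genes every DKO tumor lay above every KEAP1-KO tumor. Dhx58 stood at 30.9, 31.7, 24.3 and 26 against 66.8, 65.9, 108 and 52 (1.22, SE 0.27, adjusted p = 0.00736). Irf9 stood at 79.8, 67.0, 77.1 and 83.6 against 192, 163, 250.1 and 144 (1.22, SE 0.22, adjusted p = 0.00172). The lowest DKO tumor again exceeded the highest KEAP1-KO tumor of Experiment B for these 2 genes.

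The other members did not pass the test in Experiment B. Stat2 stood at 21.9, 8.38, 5.07 and 13.6 in KEAP1-KO tumors B and at 23.0, 12.4, 31.6 and 20.5 in DKO tumors (0.73, SE 0.33, adjusted p = 0.221). Mavs stood at 4.99, 4.65, 5.07 and 14.7 against 5.48, 16.5, 17.0 and 28.1 (0.83, SE 0.43, adjusted p = 0.303). In both cases the groups overlapped. Irf3 ranged from 21.3 to 24.9 in KEAP1-KO tumors B and from 17.0 to 26.4 in DKO tumors (-0.10, SE 0.25, adjusted p = 0.880). The Irf1 row was at 13.2 in 1 KEAP1-KO tumor and listed at 0 in the other 3 and in all 4 DKO tumors (-0.53, SE 0.56, adjusted p = 0.678).

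**Figure D2:**
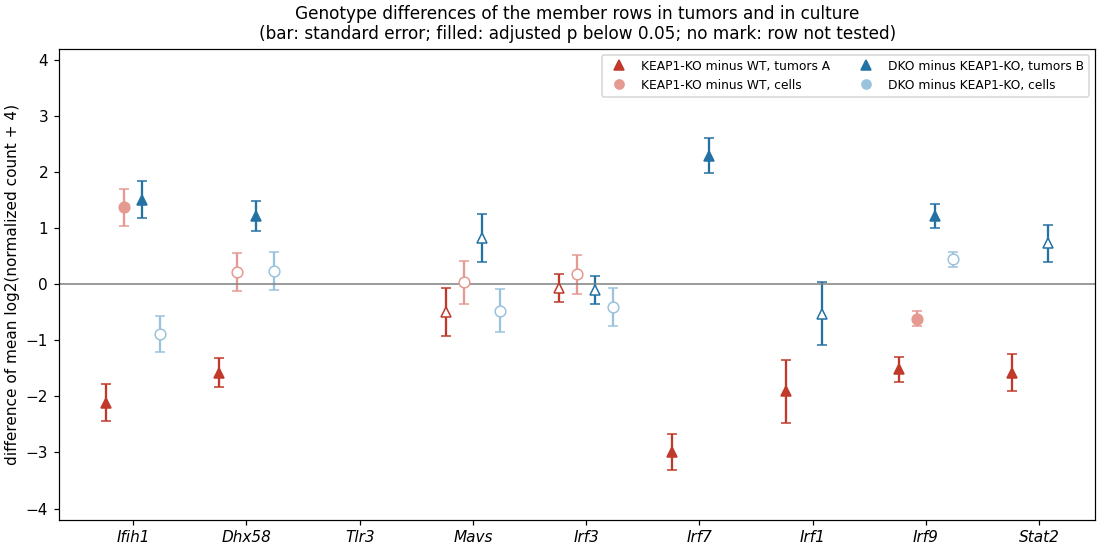
Difference of mean log2(normalized count + 4) with its standard error for each member, KEAP1-KO minus WT in red and DKO minus KEAP1-KO in blue, tumors as triangles and cultured cells as pale circles, filled where the adjusted p was below 0.05. Irf7 lies at -3.00 in tumors of Experiment A and at 2.29 in tumors of Experiment B, and Ifih1 is higher in KEAP1-KO cells (1.37) while it is lower in KEAP1-KO tumors (-2.11).

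The KEAP1-KO tumors of the 2 experiments, which were grown on opposite flanks, did not differ by the limma test for any of the 8 members, and 0.164% of all rows were called. At an unadjusted p under 0.05, where 7.69% of all rows lay, there was 1 member, Stat2 (0.81 higher in Experiment B, SE 0.33, adjusted p = 0.561). Dhx58 was higher in every KEAP1-KO tumor of Experiment B than in any of Experiment A, by 0.53 (SE 0.27, adjusted p = 0.674). DKO tumors and WT tumors came from different experiments and flanks, so that the effects of these 3 factors cannot be told apart. Of the named rows Irf1 was the only one called there, lower in DKO tumors (-1.91, SE 0.56, adjusted p = 0.0378), beside 10.6% of all rows called in either direction. It had passed the filter through 3 WT tumors, where it is high, and 1 KEAP1-KO tumor of Experiment B, so this call is a description. The call was lost when any 1 DKO tumor was left out (adjusted p 0.0716 to 0.0769) and on the gene sum (-0.32, adjusted p = 0.503). For Ifih1, Dhx58, Irf7, Irf9 and Stat2 the difference between DKO and WT tumors lay between -0.25 and 0.17, each with a standard error of 0.22 to 0.33.

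**Figure D3:**
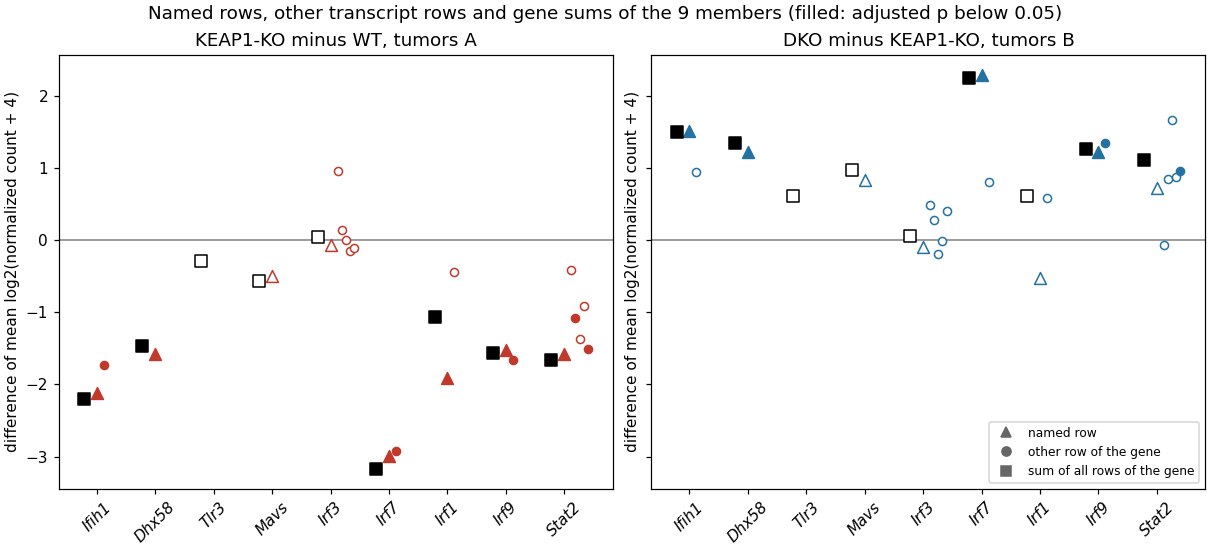
Difference of mean log2(normalized count + 4) of the named row (triangle), the other transcript rows of the same gene (circles) and the sum of all rows of the gene (black square), KEAP1-KO minus WT in Experiment A on the left and DKO minus KEAP1-KO in Experiment B on the right, filled where the adjusted p was below 0.05. The gene sum of Stat2 is filled on the right (1.10), where its named row (0.73) is not.

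Since each named row is 1 transcript, the other rows of the same genes were read beside them. In Experiment A, 5 of the 14 other rows tested were lower in KEAP1-KO tumors, beside 7.49% of all rows, and none was higher. They belong to Ifih1 (-1.73), Irf7 (-2.92), Irf9 (-1.66) and Stat2 (-1.50 and -1.08). In Experiment B, 2 of 14 were higher in DKO tumors, beside 4.22% of all rows, 1 of Irf9 (1.35) and 1 of Stat2 (0.95), and none was lower. When all rows that vM21 places in a gene were summed, a reading added after the data had been seen, 6 of 9 members were lower in KEAP1-KO tumors A, beside 16.2% of the 16249 genes tested, and 5 of 9 were higher in DKO tumors B, beside 9.63%. The 6 were those named above. The fifth in Experiment B was Stat2, whose gene sum rose from 38.6 ± 14.9 in KEAP1-KO tumors to 87.4 ± 34.6 in DKO tumors (SD, n = 4, log2 difference 1.10, SE 0.30, adjusted p = 0.0156). Summed over its rows, Irf1 reached 31.2 ± 14.5 in WT tumors, 12 ± 3.48 in KEAP1-KO tumors A, 13.9 ± 6 in KEAP1-KO tumors B and 22.7 ± 5.74 in DKO tumors. The sum fell with KEAP1 loss in Experiment A (-1.07, SE 0.31, adjusted p = 0.0150), and for DKO against KEAP1-KO tumors the difference was 0.61 (SE 0.31, adjusted p = 0.193). The zeros of the named Irf1 row therefore stand beside reads in other Irf1 transcripts of the same tumors. The Irf3 gene sum, which holds more reads than the named row, was 154.5 ± 19.5 in WT tumors and 161 ± 35.5 in KEAP1-KO tumors A (0.04, SE 0.14, adjusted p = 0.858).

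Leukocyte markers moved with the members in tumors. Ptprc, which encodes the leukocyte common antigen CD45, stood at 493 ± 20.4 in WT tumors, at 96.5 ± 16.6 in KEAP1-KO tumors A, 172 ± 27.6 in KEAP1-KO tumors B and 352 ± 52.9 in DKO tumors (SD, n = 4). It fell by 2.32 in Experiment A (SE 0.14, adjusted p = 2.44e-08) and rose by 1.02 in Experiment B (SE 0.14, adjusted p = 1.78e-04). All 5 of 5 leukocyte markers were lower in KEAP1-KO tumors A and all 5 were higher in DKO tumors B. Summed, they ranged from 2508 to 3215 in WT tumors, from 557 to 621 in KEAP1-KO tumors A, 916 to 1244 in KEAP1-KO tumors B and 1733 to 2846 in DKO tumors. Macrophage markers were lower in 9 of 9 rows in Experiment A and higher in 5 of 9 in Experiment B, with sums of 8175 to 11602, 3565 to 4342, 5940 to 6731 and 8334 to 11292 in the same order. Of 4 NK and T cell marker rows tested, 3 were lower in Experiment A and 2 were higher in Experiment B. Of 5 neutrophil rows, 4 were lower in Experiment A and 1 was higher in Experiment B. Of 5 dendritic cell rows, 2 were lower in Experiment A, and 1 was higher and 1 lower in Experiment B. The single B cell row tested was not called. No endothelial row of 5 was called in either experiment by limma, whereas fibroblast rows were lower in 1 of 6 in Experiment A and higher in 3 of 6 in Experiment B. The 1 skeletal muscle row tested was higher in Experiment B. The part of these cells in the differences of the members was not tested.

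**Figure D4:**
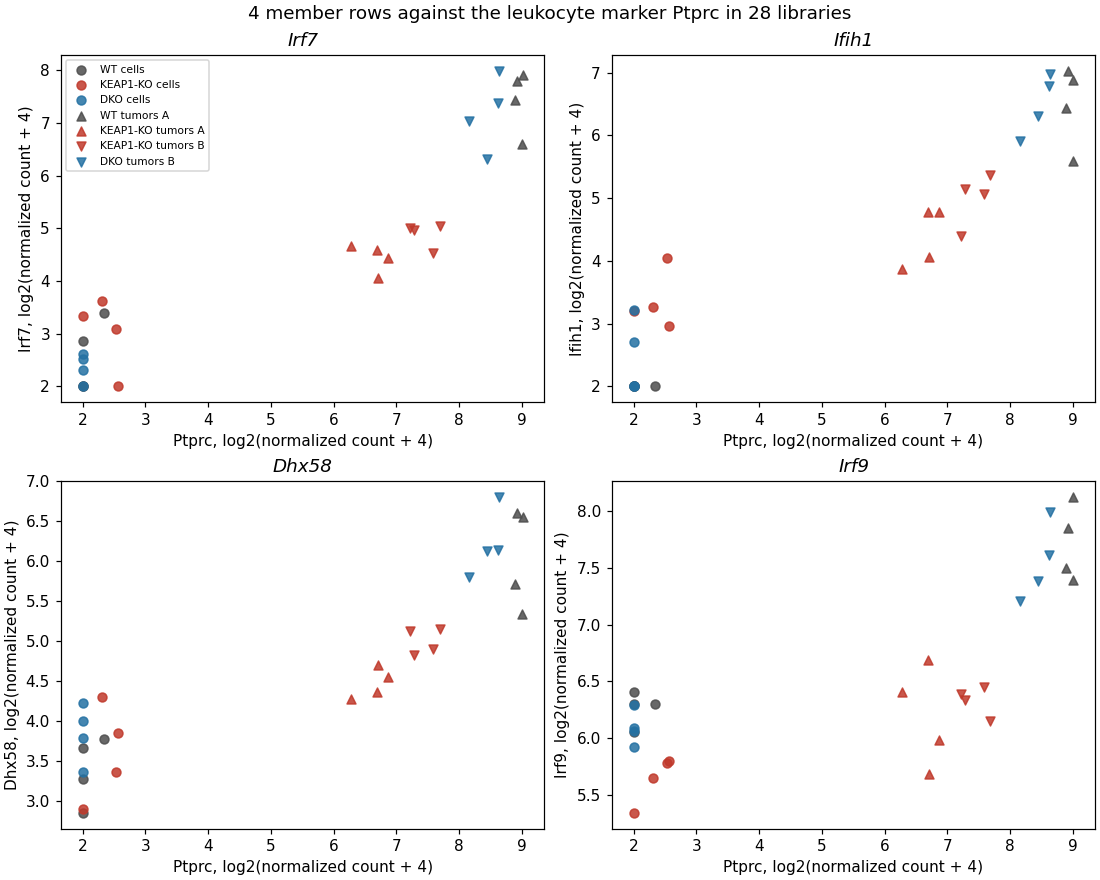
Level of Irf7, Ifih1, Dhx58 and Irf9 against that of the leukocyte marker Ptprc, all as log2(normalized count + 4), in the 28 libraries, cells as circles, tumors of Experiment A as upward and of Experiment B as downward triangles. Ptprc lies near its floor of 2 in all 12 cell libraries, where Irf9 still ranges above 5, and both Ptprc and the members are lower in the 8 KEAP1-KO tumors than in the WT and DKO tumors.

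Between the KEAP1-KO tumors of both experiments, Ptprc was 0.81 higher in Experiment B (SE 0.14, adjusted p = 0.0406), and 3 of 5 leukocyte and 6 of 9 macrophage rows were called higher. The median of the 8 members in that comparison was 0.49, against 0.01 for all rows, and whether the members and Ptprc differed was not tested. In the 4 WT tumors Ptprc ranged from 472 to 511, whereas Irf7 ranged from 92.5 to 235 and Ifih1 from 44.1 to 127. The WT tumor of lowest Irf7 was also the lowest of its group for Ifih1, Dhx58 and Irf9. In these WT tumors Irf7 and Ifih1 varied more than Ptprc did. Their counts were lower, where counting error is relatively larger, and the difference in spread was not tested.

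The cultured lines show the members without host cells. The 5 leukocyte markers summed to between 2.10 and 8.58 in the 12 cell libraries, with Cd52 at 0 in all WT and KEAP1-KO cell libraries and Ptprc at 0 in all DKO cell libraries. The 9 macrophage marker rows summed to 9.12 to 41 in WT cells, 109 to 121 in KEAP1-KO cells and 53.6 to 58.1 in DKO cells, with Adgre1, which encodes the macrophage antigen F4/80, at 0 in all 12 libraries. The part of these markers in the values below was not tested. Of the 9 members, 5 were tested in culture (Ifih1, Dhx58, Mavs, Irf3 and Irf9). The rows of Tlr3, Irf1, Irf7 and Stat2 did not reach 5 normalized counts in 4 cell libraries.

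KEAP1-KO cells differed from WT cells in 2 members, in opposite directions. Ifih1 was listed at 0 in all 4 WT cell libraries and stood at 5.57, 5.24, 3.77 and 12.5 in KEAP1-KO cells, which were 4 to 14 reads. It was higher in KEAP1-KO cells (log2 difference 1.37, SE 0.33, adjusted p = 0.0123), at least 8.26-fold when the WT group is set at 3 reads over its 4 libraries, a floor that covers counting error only. The row passed the expression filter with exactly 4 libraries, 3 of KEAP1-KO cells, where it is high, and 1 of DKO cells. This call is therefore a description, and the row was not tested when KEAP1-KO replicate 1, 2 or 4 was left out. Irf9 stood at 81.0, 62.6, 74.8 and 75.1 in WT cells and at 46.4, 36.7, 51.9 and 51.0 in KEAP1-KO cells. It fell by 0.62 (SE 0.13, adjusted p = 0.00627), and every KEAP1-KO library lay below every WT library. Among all 29744 rows tested in cells, 8.13% were called higher and 7.33% lower in KEAP1-KO cells, and 1 of 5 members in each direction is read here as the values of those 2 genes only. Dhx58 (0.21, SE 0.34), Irf3 (0.17, SE 0.34) and Mavs (0.04, SE 0.38) did not pass, with adjusted p from 0.760 to 0.970.

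In the main limma fit DKO cells differed from KEAP1-KO cells in none of the 5 members, and in 2 at an unadjusted p under 0.05, as did 19.6% of all rows. After adjustment, 3.98% were called higher and 4.85% lower. The 2 were Ifih1, at 0, 5.25, 0 and 2.56 in DKO cells (-0.89, SE 0.33, adjusted p = 0.137), and Irf9, at 74.3, 56.7, 62.9 and 64.0 in DKO cells (0.44, SE 0.13, adjusted p = 0.0610). Every DKO library lay above every KEAP1-KO library for Irf9, and with a replicate block in the limma fit Irf9 passed (adjusted p = 0.0404). Summed over its 3 rows, Irf9 was 83.4 ± 6.73 in WT cells, 56.5 ± 4.57 in KEAP1-KO cells and 79.8 ± 7.56 in DKO cells (SD, n = 4). Against WT cells the KEAP1-KO cells had the lower sum (-0.53, SE 0.11, adjusted p = 0.00218) and higher in DKO than in KEAP1-KO cells (0.47, SE 0.11, adjusted p = 0.00817). Both comparisons share the KEAP1-KO cells. On gene sums, Ifih1 and Irf9 were the members called in KEAP1-KO against WT cells (1 higher beside 16.1% of 14458 genes, 1 lower beside 14.8%), and Irf9 was the member called higher in DKO against KEAP1-KO cells (beside 8.96%).

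Between DKO and WT cells no member was called by limma, and none had an unadjusted p under 0.05, while 8.46% of rows were called higher and 9.2% lower. The differences were 0.48 for Ifih1, 0.45 for Dhx58, -0.18 for Irf9, -0.23 for Irf3 and -0.43 for Mavs, with standard errors of 0.13 to 0.38. Of the members whose named rows were not tested in culture, Irf7 ranged from 0 to 8.36 normalized counts and Stat2 from 0 to 9.85 over the 12 cell libraries, Tlr3 from 0 to 6.99, and Irf1 was listed at 0 in 10 of 12. Differences of these 4 rows between the cell groups were not tested. The gene sums of Tlr3, Irf1 and Stat2 were tested in culture and not called, with Stat2 at -0.85 in DKO against KEAP1-KO cells (SE 0.30, adjusted p = 0.0626).

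Next, tumors were compared with the cultured cells of the same genotype in 1 fit over all 28 libraries. In this comparison host cells and growth conditions cannot be told apart, and the median over all 37246 rows was itself 0.16 to 0.23 higher in tumors. In WT tumors 6 of 9 members were higher than in WT cells (beside 24.7% of rows) and 1 was lower (beside 14.1%). Among them Irf7 and Stat2 passed the filter through the tumors, where they are high. Irf7, Stat2 and Ifih1 lie near the floor in cells, which holds for each genotype below, so these counts are a description. Irf7 was higher by 4.87 (SE 0.37, adjusted p = 3.62e-11), and Ifih1, which was at 0 in WT cells, was at least 112-fold higher on the same floor (adjusted p = 2.96e-11). Dhx58 was higher by 2.66, Stat2 by 1.99, Irf9 by 1.44 and Irf3 by 0.95. The Irf3 call was lost under median centring (0.56, adjusted p = 0.150) and quantile normalization (0.59, adjusted p = 0.125), and its gene sum was 0.42 higher (adjusted p = 0.016). The member that was lower was Mavs (-1.16, SE 0.42, adjusted p = 0.0319), and this call was lost without WT cell replicate 1, 2 or 4 or WT tumor replicate 3 or 4 (adjusted p 0.0721 to 0.128). It was also lost on the gene sum (-1.01, limma adjusted p = 0.0547). The Irf1 row was not called (1.38, adjusted p = 0.0657), whereas its gene sum was higher (1.49, adjusted p = 0.00197).

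For the KEAP1-KO genotype the differences of Irf7, Ifih1, Dhx58, Irf9 and Stat2 from culture were smaller in value than for WT, whereas that of Mavs was not. In Experiment A 4 of 9 members were higher (beside 23.9%) and Mavs was lower (beside 15.8%). Irf7 was higher by 1.42 (SE 0.37), Ifih1 by 1.0 (SE 0.33), Dhx58 by 0.87 (SE 0.30) and Irf9 by 0.54 (SE 0.19). After median centring of the libraries Ifih1, Dhx58 and Irf9 no longer passed here (adjusted p = 0.0711, 0.0872 and 0.198). In Experiment B 5 of 9 were higher (beside 23.9%) and Mavs was again lower (beside 14.9%), with Irf7 higher by 1.87 (SE 0.37), Ifih1 by 1.62 (SE 0.33), Dhx58 by 1.40 (SE 0.30), Irf3 by 1.05 (SE 0.29) and Irf9 by 0.69 (SE 0.19). Irf9 no longer passed here under median centring (adjusted p = 0.0832) or quantile normalization (adjusted p = 0.0733), nor did Irf3 on its gene sum (0.21, adjusted p = 0.231). The Stat2 row was not called in Experiment B (0.88, limma adjusted p = 0.0667), whereas its gene sum was higher (1.05, adjusted p = 0.00474). Both comparisons use the same 4 KEAP1-KO cell libraries. The Mavs row stood at 39.9, 23.6, 46.2 and 21.5 in those cells and at 14.7 or less in all 8 KEAP1-KO tumors, without overlap.

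In DKO tumors 6 of 9 members were higher than in DKO cells (beside 27.6%) and none was lower (beside 15.9%). Irf7 was higher by 4.82 (SE 0.37), Ifih1 by 4.02 (SE 0.33), Dhx58 by 2.38 (SE 0.30), Stat2 by 1.84 (SE 0.37), Irf9 by 1.46 (SE 0.19) and Irf3 by 1.35 (SE 0.29), with adjusted p from 3.14e-11 to 4.57e-04. On its gene sum Irf3 did not pass here either (0.20, adjusted p = 0.241). Mavs was at 5.48 to 28.1 in DKO tumors and 12.6 to 41.0 in DKO cells (-0.42, SE 0.42, adjusted p = 0.455).

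Whether the genotype difference itself differed between tumors and culture was tested as a difference of differences. For KEAP1 loss, the difference was lower in tumors than in culture for 5 of 9 members, beside 3.88% of rows. These were Ifih1 (-3.48, SE 0.47, adjusted p = 1.74e-05), Irf7 (-3.45, SE 0.52, adjusted p = 6.80e-05), Dhx58 (-1.79, SE 0.42, adjusted p = 0.00946), Stat2 (-1.93, SE 0.53, adjusted p = 0.0293) and Irf9 (-0.90, SE 0.27, adjusted p = 0.0478). The rows of Irf7 and Stat2 entered this fit through the tumors and reached 5 normalized counts in only 3 of 12 cell libraries each. Ifih1 was at 0 in all 4 WT cell libraries and held 4 to 14 reads in KEAP1-KO cells. For these 3 genes the part from culture therefore lies near the floor of the scale. With a pseudocount of 0.4 the Stat2 call was lost (adjusted p = 0.283), as was the Irf9 call (adjusted p = 0.0677). The Irf9 call was also lost with no filter, no trend, median centring or only the groups compared (adjusted p 0.0527 to 0.101). Of the members tested in culture, Ifih1 was called lower in KEAP1-KO tumors and higher in KEAP1-KO cells, where it passed the filter mainly through the high group. Irf9 was called lower in both. The Irf9 call held in 5 of 16 fits with 1 library left out and the Stat2 call in 7 of 16, while those of Ifih1, Irf7 and Dhx58 held in all 16. On gene sums the same 5 members were called, beside 9.34% of genes, and Irf9 then gave -1.03 (SE 0.21, adjusted p = 0.001).

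For the added loss of NRF2, the difference was higher in tumors than in culture for 2 of 9 members, beside 2.12% of rows, and lower for none. They were Irf7 (2.94, SE 0.52, adjusted p = 8.51e-04) and Ifih1 (2.39, SE 0.47, adjusted p = 0.00272). Both genes lie near the floor in culture. Their means there were lower in DKO than in KEAP1-KO cells, which did not pass the test for Ifih1 and was not tested for Irf7. Both calls held in all 16 fits with 1 library left out, but with a pseudocount of 0.4 the Irf7 call was lost (3.76, adjusted p = 0.108). Dhx58 (0.98, SE 0.42, adjusted p = 0.274), Irf9 (0.77, SE 0.27, adjusted p = 0.134), Mavs (1.3, SE 0.60, adjusted p = 0.325) and Stat2 (0.97, SE 0.53, adjusted p = 0.449) did not pass. On gene sums 4 of 9 were called, beside 5.6% of genes, with Stat2 (1.96, adjusted p = 0.00337) and Irf9 (0.80, adjusted p = 0.0138) added.

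In the order of group means, WT and DKO tumors held the first 2 places for Ifih1, Dhx58, Irf7, Irf9 and Stat2, and they overlapped each other in each case. KEAP1-KO tumors B came next and overlapped KEAP1-KO tumors A, except for Dhx58, where the 2 groups were apart. For Ifih1, Dhx58 and Irf7 the cells of every genotype came last, though KEAP1-KO cells overlapped KEAP1-KO tumors A for Ifih1 and Dhx58. Irf9 differed in that WT cells (73.4 ± 7.72) and DKO cells (64.5 ± 7.26) overlapped the KEAP1-KO tumors (71.7 ± 22.9 in Experiment A), and KEAP1-KO cells (46.5 ± 6.96) were lowest (SD, n = 4). Mavs ran the other way, with cells in the first 3 places and every group overlapping its neighbor. The named Irf3 row was higher in every tumor than in any cell library, and no genotype stood apart.

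**Figure D5:**
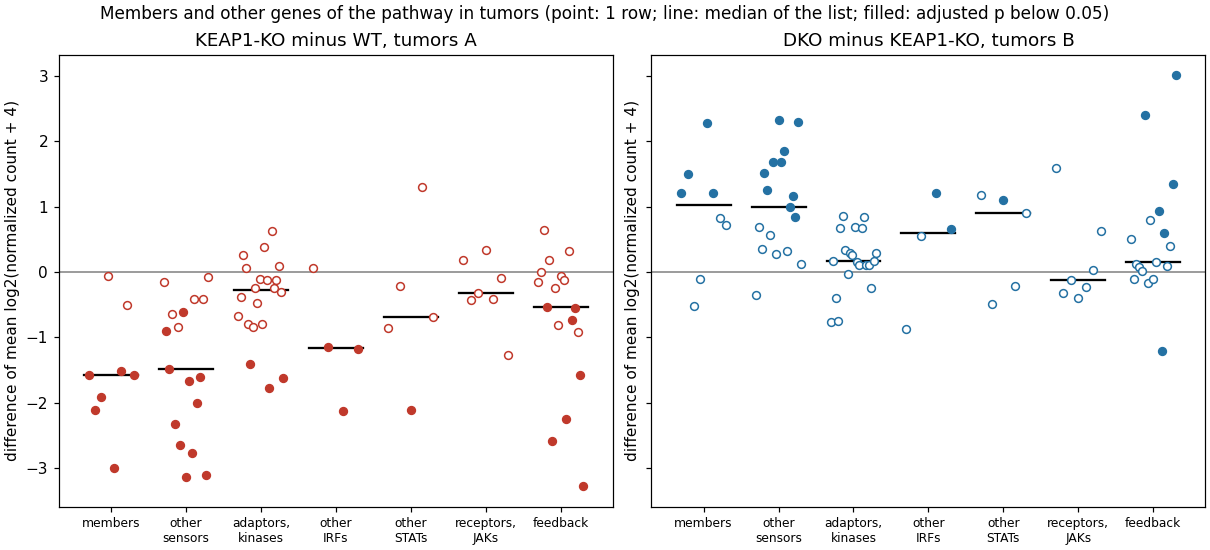
Difference of mean log2(normalized count + 4) of the members and of the other genes of the pathway by list, KEAP1-KO minus WT tumors of Experiment A on the left and DKO minus KEAP1-KO tumors of Experiment B on the right, each point 1 row, the line the median, filled where the adjusted p was below 0.05. The other sensors have medians of -1.48 and 0.99, and the adaptors and kinases of -0.28 and 0.17.

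The other genes of the pathway were read from lists by function, drawn up with earlier results of these data known and not trimmed by how a gene moved. Of 17 other nucleic acid sensors tested in tumors, 11 were lower in KEAP1-KO tumors A and 10 were higher in DKO tumors B, with medians of -1.48 and 0.99, where 7.49% of all rows were called lower in Experiment A and 4.22% higher in Experiment B. Oas1a, which makes the second messenger that activates RNase L, fell by 3.14 in Experiment A (SE 0.33, adjusted p = 7.52e-06). Of 20 other adaptors and kinases between sensor and IRF, 3 were lower in Experiment A and 0 were called in Experiment B by limma. Of 4 other IRF genes 3 were lower in Experiment A and 2 higher in Experiment B, and of 5 other STAT genes 1 was lower and 1 higher. None of 7 interferon receptor and JAK rows was called in either experiment by limma. Among interferon genes themselves only Ifnz had a row with a symbol, and it was not tested between tumors. In culture it was higher in DKO than in WT cells (1.18, limma adjusted p = 0.0419) and was not called in the other cell comparisons. It was lower in DKO tumors than in DKO cells (-1.02, adjusted p = 0.0123). The groups overlapped in both cases.

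Genes that act downstream or as feedback were lower in 7 of 17 in Experiment A, and 5 were higher and 1 lower in Experiment B. Usp18, which restrains signaling at the interferon receptor, fell by 3.28 in Experiment A (SE 0.39, adjusted p = 2.62e-05) and rose by 3.01 in Experiment B (SE 0.39, adjusted p = 1.09e-04). Isg15, a ubiquitin-like modifier, rose by 2.41 in Experiment B (SE 0.34, adjusted p = 2.44e-04). The gene that fell was Rnf125, which encodes a ubiquitin ligase of the sensors (-1.21, SE 0.20, adjusted p = 0.00104). Over the 70 rows of all these lists tested in tumors, 25 were lower and 0 higher in Experiment A, and 18 were higher and 1 lower in Experiment B, where all rows gave 7.49% lower in Experiment A, and 4.22% higher and 4.64% lower in Experiment B. The row of Ddx58, the gene of the sensor RIG-I, was looked up after its values had been seen. Ddx58 differed by -0.65 (SE 0.31, adjusted p = 0.222) in Experiment A and rose by 1.52 (SE 0.31, adjusted p = 0.00533) in Experiment B.

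In culture the same lists gave calls in both directions, at shares near those of all rows in several comparisons. Of 53 rows tested, 5 were higher and 4 lower in KEAP1-KO than in WT cells, 3 were higher and 5 lower in DKO than in KEAP1-KO cells, and 7 were higher and 5 lower in DKO than in WT cells. All rows gave 8.13% and 7.33%, 3.98% and 4.85%, and 8.46% and 9.2% in the same order, so these counts are not read as a result about the pathway. Lgals9, which encodes galectin-9, was 1.14 higher in KEAP1-KO cells (SE 0.08, adjusted p = 6.53e-07). Ikbkg, the regulatory subunit of the IkB kinase complex, was 1.94 higher there (SE 0.32, adjusted p = 9.65e-04). Ptpn6, a phosphatase that dampens JAK signaling, differed by -2.31 between KEAP1-KO and WT cells and by -1.45 between DKO and KEAP1-KO cells (adjusted p = 3.16e-05 and 0.00213). Socs1, an inhibitor of JAK kinases, was 0.45 higher in DKO than in KEAP1-KO cells (SE 0.09, adjusted p = 0.00797), and Ifi204, a DNA sensor, differed by -1.48 there (SE 0.29, adjusted p = 0.00519). In the difference of differences 22 of 73 rows were lower for KEAP1 loss, beside 3.88% of all rows, and 0 higher. For the added loss of NRF2, 13 were higher, beside 2.12%, and 1 was lower, beside 1.55%.

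The rows whose levels ran most like a member's over the 16 tumors were found by Pearson's r, given without a test, since the tumors fall into groups and both values of a tumor come from 1 library. For Irf7 they were Gbp3 (0.98), Oas1a (0.98) and Oas3 (0.98), and for Irf9 Ifi209 (0.98), Ifi206 (0.98) and Gbp3 (0.97). Dhx58 ran closest to Gbp7 (0.98), Mx2 (0.97) and Irgm1 (0.97). Ifih1 ran closest to Cd48 (0.97), Ctss (0.96) and Ms4a6d (0.96). Stat2 followed Crlf2 (0.91), Rab32 (0.90) and Xbp1 (0.90). For Irf1 (Uri1, 0.88), Mavs (Cdk18, 0.82) and Irf3 (Gm42521, 0.81) the closest row had a lower r. The Tlr3 row was too low to be compared.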

How the data were processed

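RNA-seq of 16 tumors and 12 libraries of cultured 3LL cells was analyzed. Per the study's methods, rRNA-depleted, directional libraries were read as 150-base pairs and quantified with Salmon against GENCODE mouse transcripts, and the authors deposited 1 table of log2 values per transcript or gene. Per the values, these are log2(normalized count + 4), with a floor of 2 and 100% of low values whole reads within 0.1 reads. The labels' extraction text names liver, whereas the study describes tumors and cells, which was followed. Normalized counts were 2 to the power of the value, minus 4. limma 3.58.1 (R 4.3.3; lmFit, eBayes with trend) was fitted on the log2 values of rows with at least 5 normalized counts in 4 libraries, over 16 tumors, 12 cell libraries or all 28, without a replicate block, with Benjamini-Hochberg adjustment over all rows tested and a threshold of 0.05. The scripts were tested on simulated data. No count model was used. Named are the 9 members, though in some comparisons rows that were not called are left out, and Keap1, Nfe2l2, Nqo1 and Ptprc as checks. Of the other pathway genes, a selection of the 2 highest and 2 lowest called differences of a comparison is named. Per member, up to 3 rows of highest correlation are named. The members, lists and tests were chosen with earlier results of these data known. Alternatives were other pseudocounts, filters and scalings, other samples in the fit, a replicate block, each library left out, and sums of rows. GENCODE vM21 served for transcript structure and for placing rows in genes, as used for the other rows and the gene sums. The study names another GENCODE release, so its structures and genes may differ from these.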

Additional observations from a re-analysis of the deposited data

Results flagged for a closer look

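Among 59 member and group pairs with spread, 6 had 1 library far from the other 3 by Dixon's ratio of gap to range, read at the critical value for 4 samples. Chance alone marks about 1 in 20 such groups where values are normally distributed. A group with 3 libraries at 0 and 1 with reads gives a ratio of 1 by construction, so this rate does not apply to it. The ratio was 1 for Tlr3 in WT cells and for Irf1 in WT cells, DKO cells and KEAP1-KO tumors B, in each of which 1 library held reads and the other 3 were listed at 0. It was 0.939 for Mavs in KEAP1-KO tumors B, where replicate 4 was at 14.7 and the others at 4.65 to 5.07. It was 0.869 for Irf7 in KEAP1-KO tumors B, where replicate 4 was at 19.2 and the others at 27.4 to 28.9.

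Genotype differences that differed between tumors and culture by limma were those for KEAP1 loss of Ifih1 (-3.48), Irf7 (-3.45), Stat2 (-1.93), Dhx58 (-1.79) and Irf9 (-0.90), and those for the added loss of NRF2 of Irf7 (2.94) and Ifih1 (2.39).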

How the results depend on the processing

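Over 44 calls of members, most settings moved few. A pseudocount of 0.4 left 0 members called between DKO and WT tumors, 3 in the difference of differences for KEAP1 loss and 1 in that for NRF2 loss. A filter on a mean of 25 left 0 between DKO and WT tumors, 1 between KEAP1-KO and WT cells and 4 between WT tumors and cells, and gave 1 between DKO and KEAP1-KO cells. Fits of only the groups compared gave 0 between DKO and WT tumors and 1 between KEAP1-KO and WT cells, where Ifih1 then failed the filter. Quantile normalization gave 1 between DKO and KEAP1-KO cells and 2 between KEAP1-KO tumors A and cells, as did median centring for the latter (2). Sums of rows by symbol or by vM21 gene, the second added after the data had been seen, each gave 1 between DKO and KEAP1-KO cells, and the vM21 sums gave 4 for NRF2 loss. The vM21 sums also turned Irf1 between DKO tumors and cells from -0.58 to 1.17 (limma adjusted p = 0.0118). The cause of these shifts was not tested, apart from rows lost to a filter.

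Same-numbered libraries did not visibly deviate together (correlations -0.034 to 0.040). This cannot exclude that same-numbered tumors shared a mouse, since an effect of the host may be small beside the spread between libraries. Between WT and DKO cells each library matched its own number best, a hint only. A replicate block gave 1 call between DKO and KEAP1-KO cells, Irf9 (0.44, limma adjusted p = 0.0404), and changed no other call in the comparisons of genotypes within an experiment, between cells and in the differences of differences, where it was run.

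With 1 library left out, 5 to 6 members were called in Experiment A, 4 in Experiment B, 0 between KEAP1-KO tumors, 0 to 1 between DKO and WT tumors, 1 to 2 between KEAP1-KO and WT cells and 0 in the other cell comparisons. Tumors against cells gave 5 to 8 for WT, 3 to 5 and 6 to 7 for KEAP1-KO tumors A and B, and 6 for DKO. The differences of differences gave 3 to 5 for KEAP1 loss and 2 for NRF2 loss. Rows of a few reads, such as Tlr3, are limited by depth.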
